A study of Oryza sativa with 3 samples.

Results

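The peaks described here are the OsWRKY11-Halo binding peaks whose summits lie in the outermost 1 Mb of a rice chromosome, at either side. They were chosen by position alone: a summit within 1 Mb of coordinate 1, or within 1 Mb of the largest peak end on that chromosome in either list. The first 1 Mb of chromosomes 11 and 12 was left out, so that 22 of the 24 chromosome ends remained, 10 at the low-coordinate side (called starts) and 12 at the high-coordinate side (called ends). Of the 15980 peaks of OsWRKY11-Halo replicate 1, 943 were members, and of the 21447 peaks of replicate 2, 1254 were. All other peaks outside the terminal 1 Mb, 14958 and 20082, are called interior peaks.

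The study used DAP-seq, in which a tagged protein made in vitro is mixed with fragmented, naked genomic DNA and the retained DNA is sequenced. Of its 3 libraries, 2 came from OsWRKY11-Halo, the rice transcription factor OsWRKY11 fused to the Halo affinity tag, and 1 came from GFP-Halo, a green fluorescent protein with the same tag that does not read DNA sequence. The DNA of all 3 was a library from cultivar Nipponbare, and the sample descriptions also mention formaldehyde-fixed shoots of pUbi:OsWRKY11-Myc plants without saying how these enter the libraries. Both OsWRKY11-Halo libraries were compared with the same GFP-Halo library, and nothing says that the 2 reactions were prepared separately, and differences between them may therefore be purely technical.

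WRKY proteins are a large plant family of transcription factors that recognise the W-box, a short element found in many promoters. A plant chromosome ends in a telomere, a long array of a short repeat, and next to it lies the subtelomere, where repeats shared between chromosomes give way to ordinary genes. Because such repeats occur at many ends, short reads from them are hard to place, and an assembled chromosome often stops within or just before them. In DAP-seq the DNA is meant to carry no nucleosomes, so the method is designed to read the DNA offered to the protein rather than chromatin state. Whether this holds for the profile at the chromosome ends was not tested.

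Each peak carries the authors' own values from the peak caller. The pileup counts how many OsWRKY11-Halo fragments cover the summit. The fold enrichment is the pileup over the local GFP-Halo background, and the q-value is the p-value adjusted over the list. The background was recovered from pileup and fold, and its lowest level was 2.91 fragments in replicate 1 and 3.06 in replicate 2. This level lay under 58.2% of all replicate 1 peaks and 52.8% of all replicate 2 peaks. Among these peaks of a list, the fold differed with the pileup alone. No source used here names the genome build, so sites are given by the coordinates of the lists and not by gene or sequence. Since the position of an end was taken from the last peak, distances at the high-coordinate side can be too short, whereas those at the starts rest on the coordinate itself. The last peak ends of the lists differed by at most 7 bp on chromosomes 2, 3, 4, 6 and 7, by 557 bp on chromosome 5, and by 13167 to 79683 bp on the other 6 chromosomes.

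The terminal 1 Mb as a whole held peaks at a density that differed from the interior by less than counting error. Replicate 1 had 42.9 peaks per Mb (exact 95% Poisson interval 40.2 to 45.7) in the terminal stretches and 42.9 (42.2 to 43.5) in the interior. Replicate 2 had 57.0 (53.9 to 60.2) and 57.5 (56.7 to 58.3). The ratio of terminal to interior density was 1.00 (95% interval 0.936 to 1.07) in replicate 1 and 0.991 (0.935 to 1.05) in replicate 2, or 0.996 ± 0.00672 (mean ± SD, n = 2). These intervals cover counting error only, and they are too narrow because peaks cluster: the variance of the count per interior 1 Mb window was 2.16 and 2.57 times its mean. The bands from 1 to 5 Mb inward of the same ends ran from 40.4 to 42.7 peaks per Mb in replicate 1 and from 54.1 to 58.5 in replicate 2. A gradient of peak density towards the ends was thus not detectable over the outer 5 Mb.

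Within the terminal 1 Mb, density was lowest or nearly so in the outermost 100 kb and highest between 400 and 600 kb. Replicate 1 peaks numbered 85 in the outermost 100 kb, then 99, 81, 101, 106, 106, 94, 91, 93 and 87 in the following steps of 100 kb. Replicate 2 peaks numbered 86, 118, 119, 112, 155, 157, 128, 126, 125 and 128 over the same steps. The lists thus had nearly equal counts in the outermost step, although replicate 2 had more peaks in every further one.

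Set against the stretch from 100 kb to 1 Mb, the outermost 100 kb held peaks at a density ratio of 0.892 (95% interval 0.705 to 1.12) in replicate 1 and 0.663 (0.526 to 0.825) in replicate 2, or 0.777 ± 0.162 (SD, n = 2). The lower density went beyond counting error in replicate 2 but not in replicate 1. At the starts, where the distance does not rest on the last peak, the ratios were 0.916 (0.647 to 1.26) and 0.589 (0.411 to 0.822). Counting only calls with q up to 0.05, the ratios were 1.10 and 1.03 (mean 1.06), on the other side of 1, with no interval computed. The outermost 100 kb held 30 and 39 such calls. Of these, 9 and 10 had a pileup of at least 40 and lay within 2 kb of an end. Their part in this change was not tested.

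**Figure D1:**
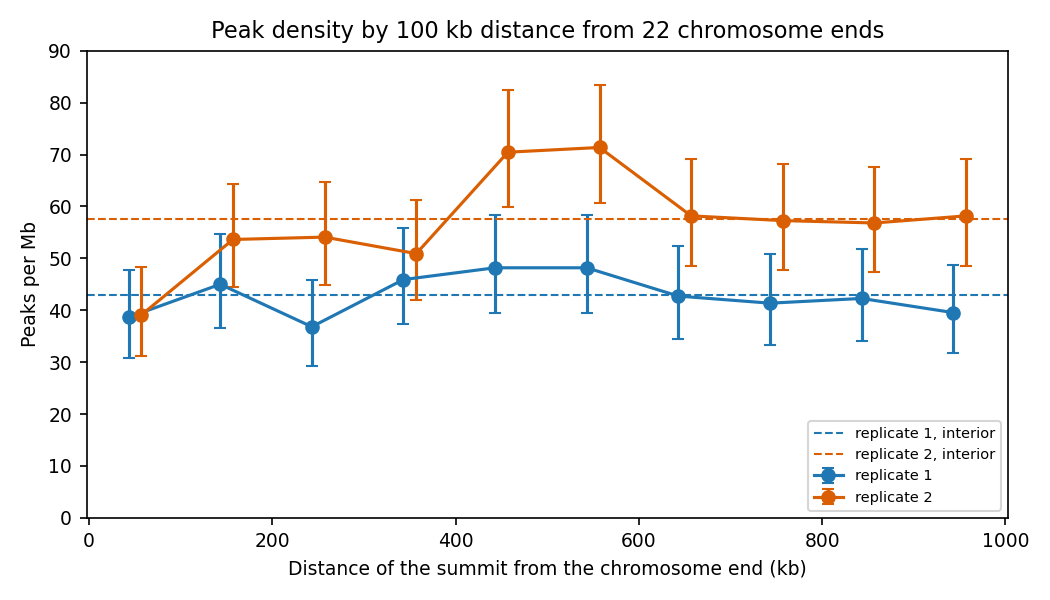
Peaks per Mb (vertical axis) by distance of the summit from the chromosome end in 100 kb steps (horizontal axis, kb), over 22 ends. Points are counts divided by length with exact 95% Poisson intervals, and dashed lines give the interior density of each list; both lists lie at 38.6 and 39.1 peaks per Mb in the outermost step, and replicate 2 reaches 71.4 between 500 and 600 kb.

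The outermost 2 kb, a bound set after the values were seen, held the deepest peaks of the whole lists. In replicate 1, 13 peaks had their summit there and 9 of them, at 9 different ends, had a pileup of at least 40. In replicate 2 there were 14 and 10. Of the 13 and 14 peaks, 9 and 9 lay at high-coordinate ends, where the rule itself puts the last peak of 1 list at the edge. That list was replicate 2 on chromosomes 8, 10 and 12, and replicate 1 on the others. A peak there is fixed by construction only in the list that set the end, and its pileup is not. The replicate 2 peaks at the ends of chromosomes 2 to 7 lay at edges set by replicate 1, so their presence is not fixed. The starts, where position is free of this, held 4 and 5, all with a pileup of at least 40. These 9 and 10 peaks had pileups from 113 to 498 and from 67 to 583, whereas the remaining 4 and 4 had at most 15 and 23. The 7 deepest peaks of each list were among them, and no interior peak exceeded a pileup of 366 in replicate 1 or 367 in replicate 2. No peak lay in the outermost 2 kb of the starts of chromosomes 11 and 12, which were left out.

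The start of chromosome 2 carried a peak at 65 to 336 with a pileup of 452 fragments in replicate 1 (exact 95% Poisson interval 411 to 496) and 583 (537 to 632) in replicate 2. Its fold enrichment was 2.73 and 3.30 (3.01 ± 0.402, mean ± SD, n = 2), with summits 2 bp apart. The intervals of the lists did not overlap. It was the deepest peak of replicate 2 and the runner-up of replicate 1, but within each list its interval overlapped that of the chromosome 6 end.

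The end of chromosome 6, at 31247565 to 31247768, had pileups of 498 (455 to 544) and 519 (475 to 566), and folds of 3.04 and 2.95 (2.997 ± 0.0621, SD, n = 2). The end of chromosome 7, at 29697015 to 29697613, had pileups of 437 and 429 and the longest peaks of the group, 592 and 597 bp. Its folds were 2.88 and 2.29 (2.59 ± 0.416, SD, n = 2), and it had the highest background of any edge peak in replicate 2, 60.9 times the lowest level. The other end of chromosome 2, at 35935970 to 35936228, had pileups of 398 and 416 and folds of 2.74 and 2.83. Pileups at these 3 ends thus agreed within counting error between the lists.

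The start of chromosome 5, at 17 to 333, had a fold of 3.62 in replicate 1 and 3.31 in replicate 2 (3.47 ± 0.218, SD, n = 2), with pileups of 404 (366 to 445) and 390 (352 to 431). The starts of chromosomes 8 and 10 resembled each other in position: their peaks spanned 1018 to 1332 and 1027 to 1369, with summits 1117 to 1142 bp from the end. The chromosome 8 peak had pileups of 379 and 394 and folds of 2.86 and 2.82. The chromosome 10 peak had pileups of 370 and 376 and lower folds, 2.52 and 2.40.

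The end of chromosome 3, at 36413492 to 36413812, had the highest fold of the edge peaks, 4.35 in replicate 1 and 4.19 in replicate 2 (4.27 ± 0.113, SD, n = 2). Its pileups were 211 (183 to 241) and 206 (179 to 236), on a background 16.4 and 15.8 times the lowest. The end of chromosome 4, at 35502472 to 35502687, was the shallowest edge peak present in both lists, with pileups of 113 and 96 and folds of 2.76 and 2.40. The start of chromosome 3 had a deep peak in replicate 2 alone, at 1006 to 1119, with a pileup of 67 (51.9 to 85.1) and a fold of 3.67.

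The edge peaks with a pileup of at least 40 also lay on a raised GFP-Halo background, which was 13.9 to 56.7 times the lowest level in replicate 1 and 5.72 to 60.9 times in replicate 2. Their median fold was 2.86 and 2.89, close to the 2.81 and 2.71 of all peaks. The part of this background in the ranking of these peaks by pileup was not tested. All 9 edge peaks of replicate 1 with a pileup of at least 40 had a partner in replicate 2, where a partner is a peak that overlaps over at least 50% of the shorter of them. Their summits lay 2 to 56 bp apart.

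**Figure D2:**
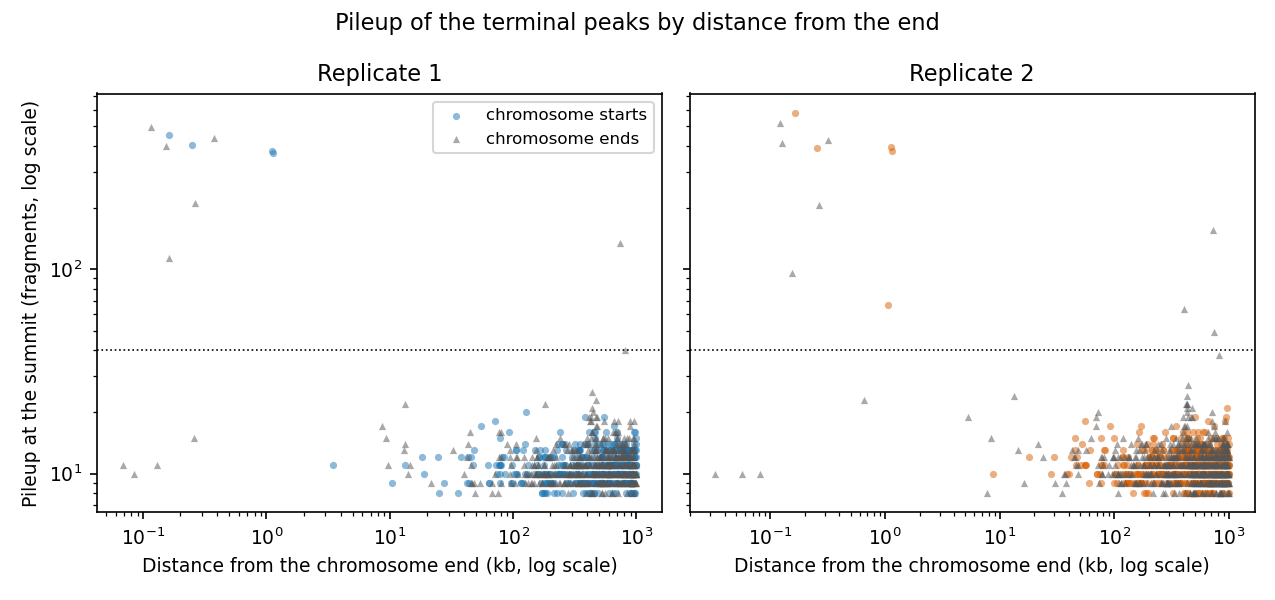
Pileup at the summit (vertical axis, fragments, log scale) of each terminal peak against its distance from the chromosome end (horizontal axis, kb, log scale), for replicate 1 (left) and replicate 2 (right). Circles are starts, triangles are ends, and the dotted line marks a pileup of 40; in replicate 1, 9 of the 11 peaks on or above the line lie within 2 kb of the end, and in replicate 2, 10 of 13.

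Beyond the outermost 2 kb, deep peaks were scarce. Over the whole terminal 1 Mb, a pileup of at least 40 was reached by 11 of 943 replicate 1 peaks and 13 of 1254 replicate 2 peaks. These are 1.17% (95% Wilson interval 0.653% to 2.08%) and 1.04% (0.607% to 1.77%), beside 1.15% and 1.04% of all peaks of the lists. Without the outermost 2 kb, 2 of 930 (0.215%, 0.0590% to 0.781%) and 3 of 1240 (0.242%, 0.0823% to 0.709%) remained, below the 1.16% and 1.05% of interior peaks. As the 2 kb bound was set after the values were seen, and the interior was not trimmed likewise, this comparison is a description only.

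The few deep peaks beyond 2 kb lay on chromosomes 10 and 3. On chromosome 10 at 22447288 to 22447755, 731 kb from the end, both lists had a deep peak with pileups of 134 and 155 and low folds of 2.19 and 2.36, on 20.8 and 21.3 times the lowest background. Replicate 2 had 2 further ones at this end, with pileups of 49 and 64. On chromosome 3, a peak 811 kb from the end had pileups of 40 and 38 and folds of 2.90 and 2.85.

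The strength of the terminal peaks resembled that of the interior. The median fold was 2.81 in replicate 1 and 2.71 in replicate 2, in both cases exactly the interior median. These are the folds of a pileup of 10 on the lowest background, a value many peaks share, so equal medians say little about the rest of the range. The upper quartile of the fold was 3.14 in terminal and 3.24 in interior peaks of replicate 1, and 3.16 and 3.11 in replicate 2. The median pileup was 11 and the median length 161 bp in both kinds of peak of replicate 1. In replicate 2 the pileup was 11 for both, and the lengths were 160.5 and 159 bp.

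Calls with q up to 0.05 comprised 276 terminal peaks of replicate 1 (29.3%, 95% Wilson interval 26.5% to 32.3%) and 381 of replicate 2 (30.4%, 27.9% to 33.0%), beside 29.9% and 28.2% of all peaks. A fold of at least 4 was reached by 28 (2.97%, 2.06% to 4.26%) and 17 (1.36%, 0.848% to 2.16%), beside 4.06% and 1.71% of all peaks. The latter shares lay below those of the lists in both replicates, by less than the counting interval in each. A fold of at least 3 was reached by 360 (38.2%, 35.1% to 41.3%) and 351 (27.99%, 25.6% to 30.5%), beside 40.7% and 26.1% of all peaks, so the direction differed between the lists. A raised background was somewhat more frequent: 54.2% (51.0% to 57.3%) and 49.2% (46.4% to 52.0%) of terminal peaks sat on the lowest background, beside 58.2% and 52.8% of all peaks. In the outermost 100 kb these shares were 36.5% (27.0% to 47.1%) and 40.7% (30.9% to 51.3%).

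The 2 highest folds of replicate 1 and the highest of replicate 2 had a weaker partner or none in the other list. These peaks were picked as the highest of 1 list, so a lower value in the other can come from the choice. In replicate 1 the strongest terminal peak lay at the start of chromosome 4, at 126093 to 126426, with a fold of 5.37 on a pileup of 20. Its partner in replicate 2 had a fold of 2.71 and a pileup of 10. The next, also at the start of chromosome 4, at 540586 to 541009, had a fold of 5.12 and a partner with 3.20. In replicate 2 the strongest lay at the end of chromosome 5, at 29175086 to 29175330. It had a fold of 5.17 on a pileup of 20, and no partner in replicate 1. A high fold at the start of chromosome 10, described below, was matched, with 4.61 and 4.68.

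The share of terminal peaks found in both lists differed from that of the whole lists by less than its counting interval. Of the 943 terminal peaks of replicate 1, 173 had a partner (18.3%, 95% Wilson interval 16.0% to 20.9%), beside 17.6% of all peaks of the list. Of the 1254 of replicate 2, 169 did (13.5%, 11.7% to 15.5%), beside 13.1%. Per Mb, shared peaks of replicate 1 numbered 7.86 (6.74 to 9.13) in the terminal stretches and 7.48 (7.20 to 7.78) in the interior. The ratio was 1.05 (0.896 to 1.23). A single GFP-Halo library lies behind both, and its part in the overlap was not tested.

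Across the 173 terminal pairs, summits lay a median of 59 bp apart, and 71.7% of them within 100 bp, against 57 bp and 70.4% in interior pairs. The Spearman correlation of fold enrichment between the lists was 0.349 over the terminal pairs and 0.303 over the 2612 interior pairs. These are descriptions across peaks, which share a background and are not replicates. More than 1 replicate 1 peak could have the same partner, so the pairs are not all distinct. Both folds of a pair were 3 or more at 57 terminal pairs (32.9%) and at 30.3% of interior pairs.

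Shared peaks were thinly spread between 100 and 400 kb from the ends, a stretch singled out after the values were seen. In that stretch 35 of 281 replicate 1 peaks had a partner (12.5%, 9.09% to 16.8%), against 117 of 577 (20.3%, 17.2% to 23.7%) from 400 kb to 1 Mb and 21 of 85 (24.7%, 16.8% to 34.8%) in the outermost 100 kb. In replicate 2 the shares were 9.74% (7.06% to 13.3%), 13.9% (11.7% to 16.5%) and 24.4% (16.6% to 34.5%). In each list, 9 of the 21 peaks with a partner in the outermost 100 kb were deep edge peaks within 2 kb of an end. Shared peaks of replicate 1 numbered 5.30 per Mb (3.69 to 7.38) from 100 to 400 kb and 8.86 (7.33 to 10.6) from 400 kb to 1 Mb. The density from 100 to 400 kb was 0.709 (0.493 to 0.988) times that of the interior. Its ratio to the stretch from 400 kb to 1 Mb was 0.598 (0.398 to 0.879). These intervals cover counting error only, and are too narrow if shared peaks cluster as all peaks did.

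The same pairs enter both lists, so the replicate 2 ratio of 0.596 (0.394 to 0.882) does not repeat the measurement. Of the 22 ends, 15 had fewer shared peaks per kb at 100 to 400 kb than further in, 5 had more, and 5 had none at all in that stretch. The end of chromosome 11 held the most of any end further in, 16, and without it the ratio was 0.653 (0.427 to 0.977) in replicate 1. The density of all replicate 1 peaks showed no such dip, at a ratio of 0.974 (0.842 to 1.13). That of replicate 2 was 0.852 (0.750 to 0.967).

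**Figure D3:**
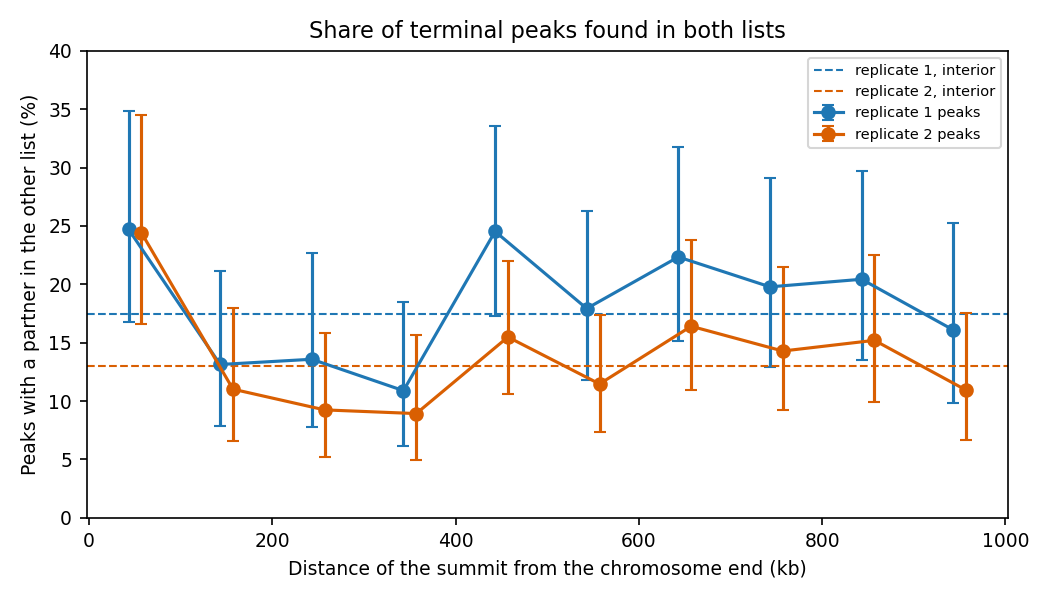
Share of terminal peaks with a partner in the other list (vertical axis, %) by distance from the chromosome end in 100 kb steps (horizontal axis, kb). Points have 95% Wilson intervals and dashed lines give the interior share of each list; from 100 to 400 kb all points lie below their line, at 10.9% to 13.6% in replicate 1 and 8.93% to 11.02% in replicate 2.

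Long peaks also made up a lower share between 100 and 400 kb than from 400 kb to 1 Mb, with overlapping intervals in replicate 1. Over the whole terminal 1 Mb, a length of at least 300 bp was reached by 92 replicate 1 peaks (9.76%, 8.02% to 11.8%) and 95 replicate 2 peaks (7.58%, 6.24% to 9.17%), beside 8.79% and 8.25% of all peaks. From 100 to 400 kb the shares were 6.05% (3.81% to 9.47%) and 3.72% (2.19% to 6.27%), and from 400 kb to 1 Mb they were 10.9% (8.63% to 13.7%) and 8.79% (7.04% to 10.9%). These bounds, too, were set after the values were seen.

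The 5 terminal pairs with the highest fold in the weaker list lay on chromosomes 10, 3 and 1. The strongest was at the start of chromosome 10, 652 kb from the end at 651793 to 652292, with folds of 4.61 and 4.68 (4.64 ± 0.0498, mean ± SD, n = 2). Its pileups were 17 (9.90 to 27.2) and 18 (10.7 to 28.4) on the lowest background in both lists, but its summits were 326 bp apart, so the lists may not mark the same point within it. The runner-up was the edge peak of chromosome 3 given above, with a far higher pileup at a similar fold.

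A pair at the end of chromosome 10, 466 kb inward at 22712447 to 22712684, had folds of 4.61 and 3.94 (4.27 ± 0.472, SD, n = 2) and summits 2 bp apart. Another at the same end, 757 kb inward at 22421682 to 22422115, had folds of 3.84 and 4.18 (4.01 ± 0.245, SD, n = 2). The start of chromosome 1 at 398360 to 398842 followed with 3.78 and 3.997 (3.89 ± 0.156, SD, n = 2). The pileups of these 3 pairs were 14 to 17 fragments, and their folds differed from one another by less than the counting error of such pileups. A fold of at least 4 in both lists was reached by 2 of the 173 terminal pairs and 46 of the 2612 interior pairs.

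**Figure D4:**
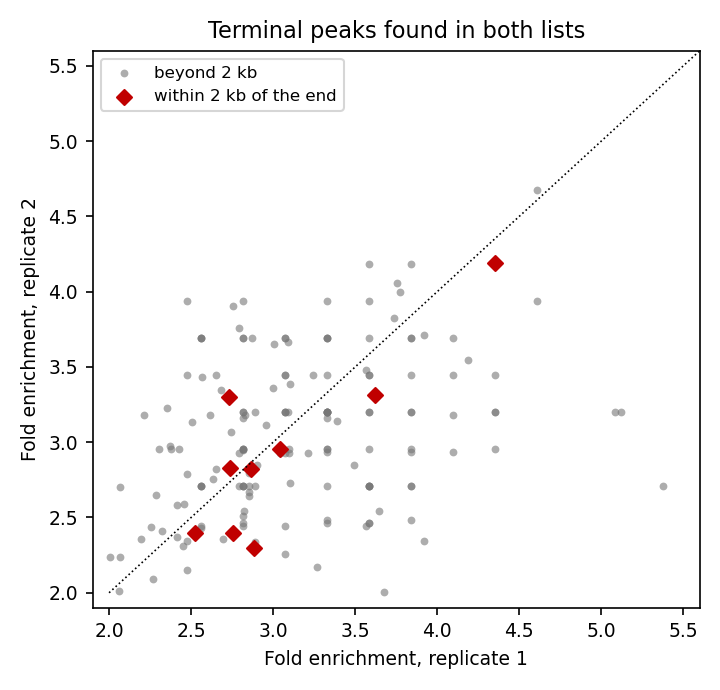
Fold enrichment in replicate 1 (horizontal axis) and replicate 2 (vertical axis) of the 173 terminal pairs, with the line of equality dotted. Red diamonds are the 9 pairs within 2 kb of the end; 8 of them have folds between 2.29 and 3.62 in either list, and the diamond of the chromosome 3 end lies at 4.35 and 4.19.

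The chromosome ends differed in their number of peaks about as much as interior windows did. Counts per terminal 1 Mb ran from 30 to 64 in replicate 1 (median 41.5, SD 9.30, 22 ends) and from 38 to 84 in replicate 2 (median 54, SD 11.3). The 344 interior windows of 1 Mb had medians of 43 and 57 with SDs of 9.64 and 12.2, and the 5th to 95th percentiles ran from 28.2 to 58 and from 40 to 79. Only 1 end in replicate 1 and 2 ends in replicate 2 fell outside those percentiles. Replicate 2 had more peaks than replicate 1 at 21 of the 22 ends, the exception being the end of chromosome 6 with 53 in replicate 1 and 44 in replicate 2. Over the 22 ends, Pearson's r between the counts was 0.561 and Spearman's rho 0.458, with the GFP-Halo library in common, and r was 0.343 without the 2 ends farthest from the median of replicate 1.

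The end of chromosome 11 had the most peaks, 64 (exact 95% Poisson interval 49.3 to 81.7) in replicate 1 and 84 (67.0 to 104) in replicate 2, which is 1.44 and 1.45 times the interior density of its own chromosome. By the mean of the lists it was followed by the starts of chromosome 10, with 55 and 72, and of chromosome 4, with 58 and 65. By the same mean the fewest peaks lay at the ends of chromosome 4, with 32 and 38, of chromosome 2, with 30 and 48, and of chromosome 7, with 36 and 46. Single lists ordered the ends otherwise: the start of chromosome 9 had 32 in replicate 1, the end of chromosome 6 had 44 in replicate 2, and the start of chromosome 5 had 73 in replicate 2. The ends of chromosomes 4, 2 and 7 all carry a deep edge peak, and the start of chromosome 10 does as well. Relative to their own chromosome, 5 ends were denser in both lists and 9 were sparser in both.

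Starts and ends were also compared. The starts held 44.4 peaks per Mb (40.4 to 48.7) in replicate 1 and the ends 41.6 (38.0 to 45.4), and in replicate 2 the values were 60.2 (55.5 to 65.2) and 54.3 (50.2 to 58.7). The ratio of starts to ends was 1.07 (0.937 to 1.22) and 1.11 (0.990 to 1.24), within counting error in each list. Counting only calls with q up to 0.05, the ratios were 0.979 and 0.957 (mean 0.968), on the other side of 1, with no interval computed. Of the 10 chromosomes with both sides used, 6 had more peaks at the start in both lists and 1 had more at the end in both. The share of peaks with a partner was also set out by side. A partner was found for 15.1% (12.1% to 18.7%) of replicate 1 peaks at starts and 21.2% (17.9% to 25.04%) at ends, and for 10.96% (8.71% to 13.7%) and 15.8% (13.2% to 18.8%) in replicate 2. The share was lower at the starts, but the intervals overlap, the difference was not tested, and the same pairs enter both lists. The starts of chromosomes 9 and 6 had the fewest, 1 of 32 and 2 of 36 replicate 1 peaks.

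**Figure D5:**
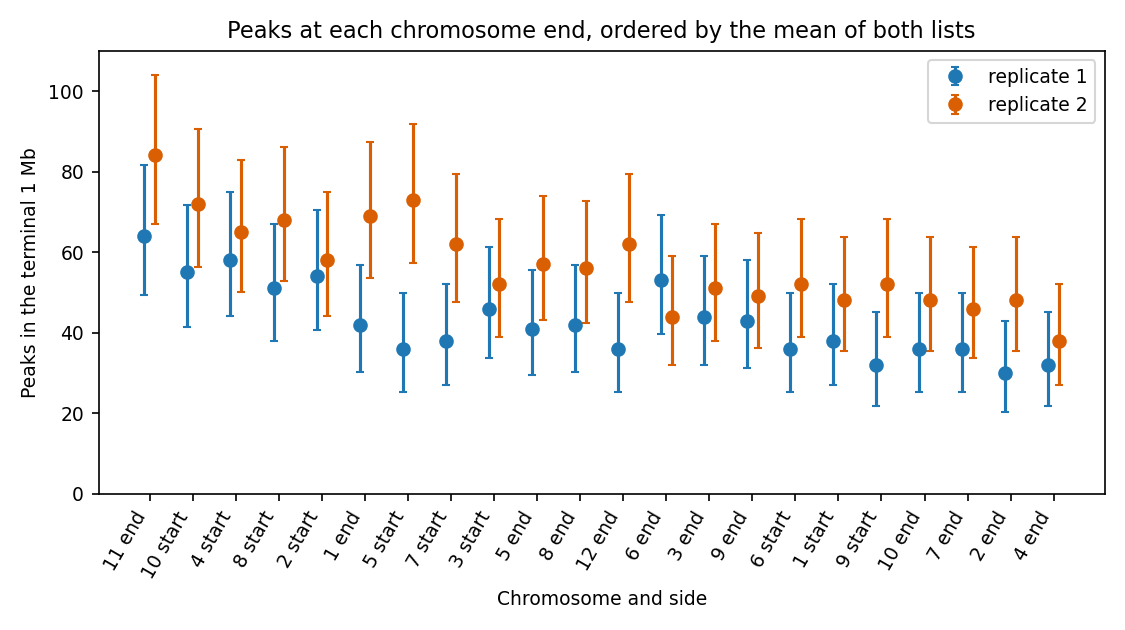
Number of peaks in the terminal 1 Mb (vertical axis) at each of 22 chromosome ends (horizontal axis), ordered by the mean of the lists. Points are counts of replicate 1 and replicate 2 with exact 95% Poisson intervals; the end of chromosome 11 leads with 64 and 84, and the end of chromosome 4 comes last with 32 and 38.

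The densest 100 kb step of a single end in replicate 1 lay at the end of chromosome 11, from 400 to 500 kb inward. It held 16 peaks there (9.15 to 25.98) and 15 (8.40 to 24.7) in replicate 2, against a median of 4 and 5 over all 220 single steps. Of these peaks 9 in each list had a partner, where 17.6% and 13.1% of all peaks did, and the same pairs enter both counts. They spanned 28515124 to 28608496 in replicate 1 and were deeper than usual, with pileups of 11 to 25 (median 18.5) in replicate 1 and 11 to 27 (median 20) in replicate 2. Their folds were ordinary, with medians of 2.81 and 2.82.

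The GFP-Halo background under most peaks of this step was raised, at a median of 2.05 times the lowest level in replicate 1 and 2.00 times in replicate 2, and 0 of 16 and 1 of 15 peaks sat on the lowest background. The part of this raised background in the number of peaks was not tested. In replicate 2 the densest step was the start of chromosome 5 from 500 to 600 kb, with 16 peaks, where replicate 1 had 5 (1.62 to 11.7). Over the terminal stretches, 7 of the 220 steps were empty in replicate 1, 1 in replicate 2 and 0 in both at once.

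The bound of 1 Mb fell among peaks of ordinary strength. The 3 replicate 1 peaks just inside it, 995.6 to 997.6 kb from an end, had folds of 2.06, 2.67 and 2.61, and the 3 just outside had 2.56, 2.56 and 3.58. In replicate 2 the 3 peaks inside had folds of 3.40, 2.95 and 2.11, and those outside 3.20, 3.20 and 2.69.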

How the data were processed

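DAP-seq peaks of 2 OsWRKY11-Halo libraries (titles SYZ1 and SYZ2) called against 1 GFP-Halo library (titled DZZ, spelled DDZ in the protocol) were analysed, with groups taken from titles and protocol. The submitters' processing notes name MACS2 2.2.7.1, BWA 0.7.12-r1039 and Trimmomatic 0.36, with no options. Read totals, and thus depth, are not stated in them. Per the file headers, the deposited lists give each peak's pileup (a coverage signal), fold enrichment (a ratio to the local background), and p-value and q-value as -log10. Peaks were called per library, per the peak names.

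The background was computed as pileup plus 1, divided by fold, minus 1. Peaks within 0.001 of a list's lowest value were counted as lowest. Among several overlapping peaks, that with the nearest summit was the partner. A peak could be the partner of more than 1 peak of the other list. Intervals are exact Poisson for counts, Wilson for shares and exact conditional for density ratios, all at 95%; they cover counting error only, since PCR copies were not told apart by molecular identifiers. No p-value was computed: peaks are not replicates, and n is 2. The members, lists and bounds were chosen with earlier results of these data known. Named sites are the 5 shared pairs with the highest weaker fold, the 5 deepest peaks of each list, the 3 densest and 3 sparsest ends and the densest step of each list, and others were named after their values were seen. Nearest genes and gene lists were planned but not used, as no annotation in the build of the lists was used here. Density and pairing steps were tested on simulated peaks of 1 length at unclustered random positions. The real peaks cluster and vary in length, so this checks the computation only. Intervals came from scipy 1.17.1, tables from pandas 2.3.3 and numpy 2.4.6, and plots from matplotlib 3.10.9, under Python 3.11.15.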

Additional observations from a re-analysis of the deposited data

How the results depend on the processing

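Counting only calls with q up to 0.05 moved 2 mean ratios to the other side of 1. The density ratio of the outermost 100 kb to the rest of the terminal 1 Mb went from 0.777 to 1.06. That of starts to ends went from 1.09 to 0.968. No interval was computed for these calls. Of the main ratios, only that of the outermost 100 kb in replicate 2 went beyond counting error. Single values here are means of the 2 lists, except the share with a partner. With these peaks the terminal to interior density ratio was 0.976 in replicate 1 and 1.07 in replicate 2 (mean 1.02). The median fold difference (terminal minus interior) was 0 and -0.063 (mean -0.0315), and the share of peaks with a pileup of at least 40 was 3.70%. With a fold of at least 3, the ratio of starts to ends was 1.05, and the median fold difference was 0 in replicate 1 and -0.0346 in replicate 2 (mean -0.0173). The share with a q-value of at most 0.05 was then 71.9% and 99.4% (mean 85.7%), where fold and q-value rest on the same pileup and background. The terminal to interior ratio was 0.966 with a window of 500 kb, 1.03 against the 1 to 5 Mb stretches, and 0.941 as a median over ends against their own chromosome. A window of 500 kb gave a ratio of starts to ends of 1.05, a pileup of at least 40 in 1.89% and a q-value of at most 0.05 in 30.8% of peaks; a window of 2 Mb gave 0.761% for the pileup. The share of replicate 1 terminal peaks with a partner, 18.3%, was 23.2% for calls with q up to 0.05 (interior 18.5%) and 15.8% at a fold of at least 3 in both lists (interior 13.1%), above the interior at both with overlapping intervals, 22.3% with any overlap of 1 bp (interior 21.3%), 12.1% with an overlap of 50% of both peaks (interior 11.8%), 15.1% with summits within 100 bp (interior 13.6%), and 13.5% for replicate 2 peaks. Alternatives added after seeing the data gave 1.14 for starts to ends without the end of chromosome 11, and 0.228% for the pileup without the outermost 2 kb, where the deep peaks lie. Otherwise the cause of these differences was not tested. Without either replicate, values ran from 0.991 to 1.00 for terminal to interior density, 0.663 to 0.892 for the outermost 100 kb, 1.07 to 1.11 for starts to ends, 1.04% to 1.17% for a pileup of at least 40, and 29.3% to 30.4% for the q-value. Leaving out a replicate leaves no partner to count. No paired analysis was possible because the control arm holds a single GFP-Halo library, shared by the lists. Most pileups are near 11, and read depth is unknown.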

Other observations

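The first 1 Mb of chromosomes 11 and 12, left out of all counts above, held 79 peaks of replicate 1, or 39.5 per Mb (exact 95% Poisson interval 31.3 to 49.2), and 111 of replicate 2, or 55.5 per Mb (45.7 to 66.8). A partner was found for 20 of the 79 (25.3%, 95% Wilson interval 17.0% to 35.9%) and 20 of the 111 (18.0%, 11.98% to 26.2%), above the 18.3% and 13.5% at the other ends by less than these intervals. Neither stretch had a pileup of 40 or more.

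At the end of chromosome 4, 13.3 kb from the chromosome end, lay the longest peak of this end, 716 bp in replicate 1 and 900 bp in replicate 2. Its pileups were 22 and 24 and its folds 3.57 and 3.48. It is given here as a value, singled out after it was seen.

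The outermost peak lay within 2 kb at 4 and 5 of the 10 starts, and its median distance over the starts was 10932.5 bp in replicate 1 and 4923 bp in replicate 2. At the start of chromosome 6 the outermost peak was 149184 bp inward in replicate 1 and 44881 bp in replicate 2.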
